A study of Mus musculus with 11 samples.

Results

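The perineuronal and perinodal matrix was followed through 9 genes that were listed by name. They were the lecticans Bcan, Ncan, Vcan and Acan, the tenascins Tnr and Tnc, and the link proteins Hapln1, Hapln2 and Hapln4. All 9 are listed among the 22609 genes of the count table, and all 9 passed the filter of at least 10 reads over all libraries that left 17557 genes for testing. RNA-seq libraries of polyadenylated RNA from tissue labelled cerebellar hemisphere came from 11 untreated mice, 3 control, 3 NFKO, 2 AnkGKO and 3 DKO. The labels name the controls only as floxed control mice, and by the study's methods these had no Cre and carried floxed alleles of both genes or of 1 of them. NFKO, AnkGKO and DKO mice carried Pcp2-Cre with NfascFx/Fx, with AnkGFx/Fx or with both. The Cre transgene was absent from the controls only, so the transgene and the deletions cannot be told apart in comparisons with control. Pcp2-Cre acts mainly in Purkinje cells, which are a small share of the cells in a piece of cerebellum. The sample labels give a mixed C57BL/6J;129 background, mixed sex, a single batch, and an age of postnatal day 30 in their descriptions but 32 in the growth protocol.

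Lecticans are large chondroitin sulfate proteoglycans that bind the glycosaminoglycan hyaluronan at one end and tenascins at the other. Link proteins hold the bond between lectican and hyaluronan, and tenascin-R ties lecticans to each other. Together these molecules form perineuronal nets around neurons, the coat of the axon initial segment and the perinodal matrix at nodes of Ranvier. In the cerebellum such nets are known around neurons of the deep nuclei. The targeted genes encode neurofascin and AnkG, which organize the axon initial segment and the nodes. The comparisons asked whether transcripts of this matrix differed between genotypes labelled as lacking either gene or both in Purkinje cells.

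Reads counted on genes totalled 38890851 to 55822361 per library. The targeted gene Ank3, which encodes AnkG, fell in AnkGKO (log2 fold change -1.03, edgeR adjusted p = 0.00108) and in DKO (-1.07, adjusted p = 0.000461). Nfasc did not pass the test in NFKO (-0.08, adjusted p = 0.969) or in DKO (-0.23, adjusted p = 0.619). Counts per gene do not resolve the deleted exons, and Nfasc is also transcribed by glia. Levels are given as CPM, the usual count of reads on a gene scaled to 1 common library size, after edgeR's TMM scaling of the totals. Markers of the labelled tissue were uneven. Pcp2, the Purkinje cell marker whose promoter drives Cre, was at 26.3 CPM in Control 1, 28.3 in NFKO 1, 1.43 in Control 2 and 2.14 in NFKO 2, and at 0.0929 to 0.374 in the other 7 libraries. Those 7 include every AnkGKO and DKO library. Ank3 was at 156 and 200 CPM in AnkGKO and 160 to 185 in DKO, against 353 to 375 in control. Whether the fall of Ank3 was confined to Purkinje cells was not tested. Gabra6, a GABA receptor subunit of granule cells, had 0.0186 to 4.41 CPM in 9 libraries, against 84.2 for Control 1 and 59.0 for NFKO 1. Fat2 was at 143 and 121 CPM in Control 1 and NFKO 1 and at 0.119 to 10.1 elsewhere, and Cbln3 at 193 and 177 against 1.53 to 15.2. Neurod1 was at 53.9 and 41.3 against 1.67 to 7.20, and Car8 at 157 and 197 against 7.64 to 23.4. Some other markers of these lists were well expressed in all 11 libraries, among them Calb1 at 30.6 to 125 CPM and Reln at 129 to 179. The summed level of 8 granule cell markers was 918 CPM in Control 1 and 785 in NFKO 1 and between 216 and 305 elsewhere. In contrast, 8 caudal Hox genes, which are characteristic of spinal cord, summed to 297 to 434 CPM in all 11 libraries. Hoxb8 was the largest member at 167 to 265 CPM, while Hoxc8 was uneven, from 7.99 in Control 2 to 159 in NFKO 1. The values below are therefore reported for the libraries as labelled. The part of these marker levels in the results was not tested, and each count of called matrix genes was also taken without Control 1 and NFKO 1, and was then 0 in each comparison.

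None of the 9 matrix genes was differentially expressed in any of the 6 comparisons. Calls required a log2 fold change of 0.6 or more in either direction and an adjusted p under 0.05 by the quasi-likelihood test of edgeR, adjusted after Benjamini and Hochberg over all 17557 genes. In NFKO against control 0 of 9 were called, where 0.365% of all genes were. In AnkGKO against control the count was 0 of 9, against 0.165% of all genes, and in DKO against control 0 of 9, against 0.0228%. In DKO against NFKO it was 0 of 9 where 0.615% of all genes were called, in DKO against AnkGKO 0 of 9 where 0.171% were, and in the interaction of the knockouts 0 of 9 where 0.530% were. A count of 0 in 9 is close to each of these backgrounds. At an unadjusted p under 0.05 there were 0 of 9 in each comparison with control, where 7.69% (NFKO), 5.39% (AnkGKO) and 7.77% (DKO) of all genes were. This fit did not pair samples by replicate number. When control and NFKO alone were paired so, Acan and Hapln1 had such a p by edgeR, where 12.8% of all genes had. There was 1 of 9, Acan, in each of the other 3, where 16.2% (DKO against NFKO), 8.48% (DKO against AnkGKO) and 10.3% (interaction) of all genes were, so 1 of 9 is close to the background. DESeq2 called 0 of 9 in each comparison as well, where it called 0.906% of all genes in NFKO, 0.581% in AnkGKO and 0.251% in DKO against control, 2.38% in DKO against NFKO, 0.564% in DKO against AnkGKO and 1.79% in the interaction.

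Summed over the 9 genes, expression averaged 1271 ± 50.5 CPM over the 3 control libraries (mean ± SD), 1254 ± 62.8 over the 3 NFKO libraries, 1283 ± 157 over the 2 AnkGKO libraries and 1196 ± 30.8 over the 3 DKO libraries. The sums overlapped between control and each knockout. The libraries were bulk tissue, so fewer cells of a type and less RNA per cell cannot be told apart. The plot of the 9 genes by library shows how far the libraries of each genotype spread.

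**Figure D1:**
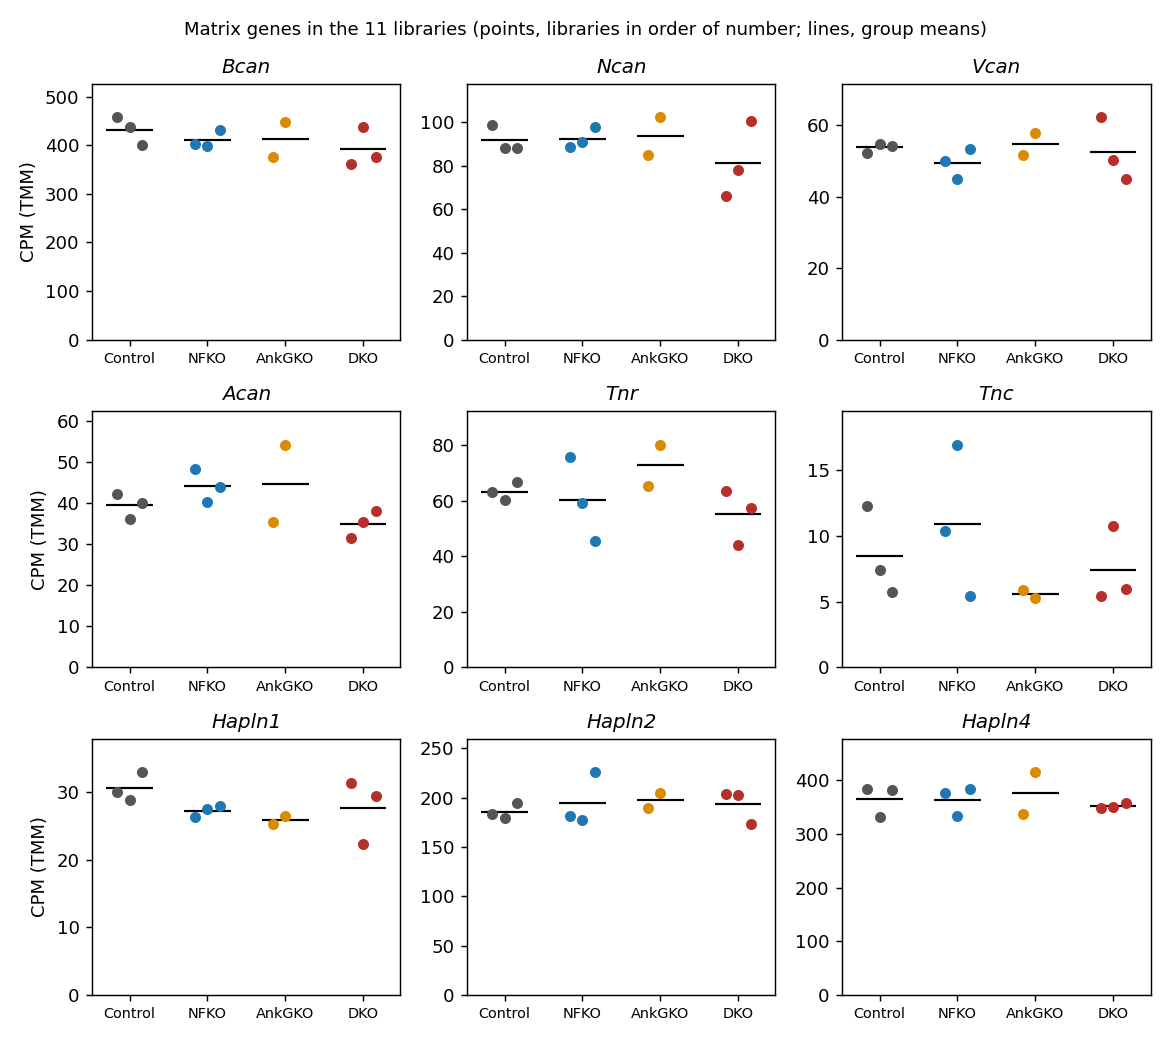
TMM-scaled CPM (y axis, linear from 0) of the 9 matrix genes in each of the 11 libraries, by genotype (x axis); points are libraries, in order of replicate number within a genotype, and lines are group means. Bcan lies between 362 and 458 CPM in all libraries, whereas Tnc ranges from 5.30 to 17.0.

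Per kilobase of the canonical transcript, the 9 genes fell into levels far apart. Bcan was highest at 108 ± 8.46 CPM per kb (SD, n = 11), followed by Hapln4 at 99.3 ± 7.28, Hapln2 at 59.3 ± 4.83 and Ncan at 12.4 ± 1.498. Acan at 5.31 ± 0.858, Tnr at 5.08 ± 0.890, Hapln1 at 4.75 ± 0.497 and Vcan at 4.15 ± 0.401 CPM per kb formed a lower group, and Tnc was lowest at 1.14 ± 0.523. Neighbours in this order overlapped in range for Bcan and Hapln4, Acan and Tnr, Tnr and Hapln1, and Hapln1 and Vcan. The steps from Hapln4 to Hapln2, from Hapln2 to Ncan, from Ncan to Acan and from Vcan to Tnc held in 11 of 11 libraries. When the length of all annotated exons was used instead, Hapln4 at 90.6 CPM per kb came before Bcan at 47.9 and the rest of the order stayed. Transcripts of the link protein known from nodes of Ranvier (Hapln2) and of the one known from hindbrain and cerebellar nets (Hapln4) were thus more abundant per length than that of Hapln1, the link protein of cartilage and of cortical nets.

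**Figure D2:**
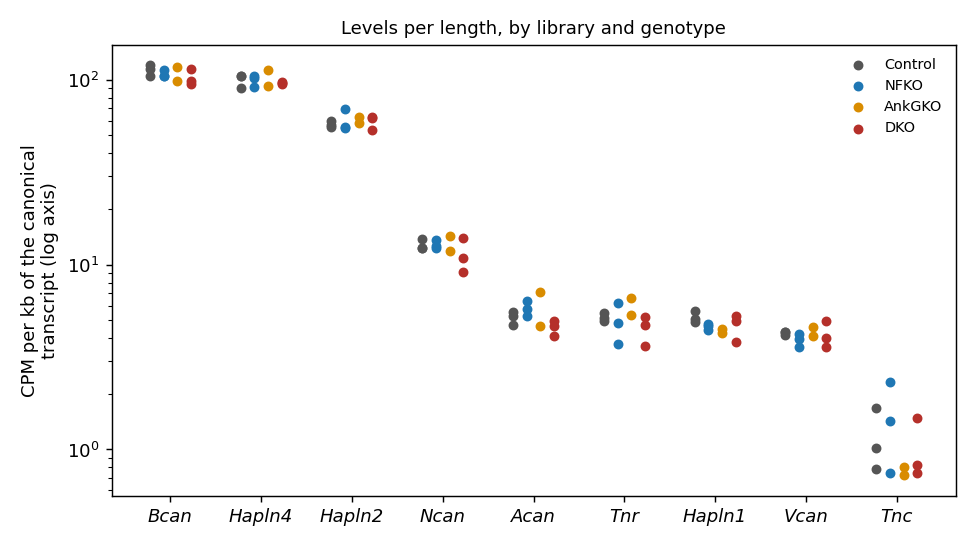
CPM per kb of the canonical transcript (y axis, logarithmic) for the 9 matrix genes (x axis, ordered by mean), one point per library, coloured by genotype. Bcan and Hapln4 are highest, with means of 108 and 99.3 CPM per kb, and Tnc is lowest, with a mean of 1.14.

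Among the lecticans, Bcan encodes brevican, the main lectican of mature brain, made largely by astrocytes and oligodendrocyte precursors. It measured 458, 437 and 401 CPM in the control libraries, 402, 399 and 431 in NFKO, 376 and 448 in AnkGKO, and 362, 438 and 377 in DKO. Every knockout group overlapped control. The log2 fold change was -0.07 in NFKO (SE 0.09, 95% confidence interval -0.27 to 0.12), -0.07 in AnkGKO (SE 0.10, -0.29 to 0.15) and -0.14 in DKO (SE 0.09, -0.33 to 0.05). In DKO, Bcan had the smallest p of the 9 genes (unadjusted p = 0.144, edgeR adjusted p = 0.691).

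Ncan encodes neurocan, a lectican of the developing brain that declines with maturation. It was at 98.8, 88.2 and 88.0 CPM in control, 88.5, 90.9 and 97.95 in NFKO, 84.9 and 102 in AnkGKO, and 65.9, 78.1 and 100 in DKO. DKO 1 and DKO 2 lay below all control libraries and DKO 3 above them. Against control, Ncan had log2 fold changes of 0.01 in NFKO (SE 0.13, interval -0.28 to 0.31), 0.03 in AnkGKO (SE 0.15, -0.30 to 0.36) and -0.17 in DKO (SE 0.13, -0.46 to 0.13). The 2 small values in NFKO and AnkGKO changed sign when single libraries were left out.

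Vcan encodes versican, whose brain isoform V2 is made by cells of the oligodendrocyte lineage and lies at nodes of Ranvier. Its level was 52.3, 54.7 and 54.2 CPM in control, 49.8, 45.0 and 53.3 in NFKO, 51.6 and 57.7 in AnkGKO, and 62.2, 50.3 and 45.0 in DKO. The 3 control libraries lay close together, with a coefficient of variation of 2.35%, and the DKO libraries spread to both sides of them. Log2 fold changes of Vcan were -0.12 in NFKO (SE 0.11, interval -0.36 to 0.11), 0.02 in AnkGKO (SE 0.12, -0.24 to 0.29) and -0.03 in DKO (SE 0.11, -0.27 to 0.20). The counts do not separate the versican isoforms.

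Acan encodes aggrecan, a lectican that neurons with perineuronal nets make themselves. It was at 42.3, 36.1 and 40.1 CPM in control, 48.3, 40.2 and 43.9 in NFKO, 35.3 and 54.2 in AnkGKO, and 31.4, 35.3 and 38.0 in DKO. All NFKO libraries lay above the control mean of 39.5 CPM and all DKO libraries below it, while both groups overlapped the range of control. The AnkGKO pair lay far apart and included the highest library of all. For Acan the log2 fold change from control was 0.16 in NFKO (SE 0.14, interval -0.15 to 0.47), 0.18 in AnkGKO (SE 0.16, -0.17 to 0.53) and -0.18 in DKO (SE 0.14, -0.49 to 0.14). Without AnkGKO 2 the value in AnkGKO was -0.16, and without AnkGKO 1 it was 0.46.

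Acan was also the gene with the smallest p of the 9 in DKO against NFKO, in DKO against AnkGKO and in the interaction. NFKO and AnkGKO were not compared with each other. In DKO against NFKO the log2 fold change was -0.34 (SE 0.14, interval -0.65 to -0.03, unadjusted p = 0.0367, edgeR adjusted p = 0.275). All 3 DKO libraries lay below all 3 NFKO libraries, the only such case among the 9 genes, where 19.3% of all genes did not overlap in one direction or the other. At an unadjusted p under 0.05 this comparison held 16.2% of all genes. Against AnkGKO the value in DKO was -0.36 (SE 0.16, interval -0.71 to -0.01, unadjusted p = 0.0442, edgeR adjusted p = 0.579), and the libraries overlapped. That value was -0.64 without AnkGKO 1 and -0.02 without AnkGKO 2. The interaction, which asks whether the change in DKO differs from the sum of the changes in NFKO and AnkGKO, was -0.52 (SE 0.21, interval -0.99 to -0.05, unadjusted p = 0.0329, edgeR adjusted p = 0.429). It was -0.80 without AnkGKO 1 (edgeR adjusted p = 0.0933) and -0.18 without AnkGKO 2 (adjusted p = 0.828). With 1 AnkGKO library left, that library was assumed to vary like the other groups. With a replicate block over all libraries, the unadjusted p by edgeR was 0.0549 in DKO against NFKO, 0.0653 in DKO against AnkGKO and 0.0502 in the interaction. The interaction shares all 4 groups with the comparisons above, so these values are not independent of each other.

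Of the tenascins, Tnr encodes tenascin-R, which oligodendrocytes and some interneurons make and which cross-links lecticans in nets and at nodes. It was at 63.1, 60.4 and 66.7 CPM in control, 75.7, 59.2 and 45.5 in NFKO, 65.3 and 80.3 in AnkGKO, and 63.7, 44.3 and 57.4 in DKO. The control libraries were close together, the NFKO libraries lay on both sides of them, and 2 of 3 DKO libraries lay below them. For Tnr the log2 fold change from control was -0.07 in NFKO (SE 0.18, interval -0.49 to 0.34), 0.20 in AnkGKO (SE 0.20, -0.26 to 0.66) and -0.20 in DKO (SE 0.18, -0.61 to 0.21). In DKO against AnkGKO, Tnr was the only one of the 9 genes without overlap, lower in all 3 DKO libraries than in both AnkGKO libraries (log2 fold change -0.40, SE 0.20, unadjusted p = 0.0780, edgeR adjusted p = 0.623). In that comparison 23.7% of all genes did not overlap.

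Tnc encodes tenascin-C, a tenascin of the developing and injured brain that is also a major product of fibroblasts of tendon and muscle attachments. It was the most uneven of the 9, at 12.3, 7.45 and 5.71 CPM in control, 10.4, 17.0 and 5.44 in NFKO, 5.88 and 5.30 in AnkGKO, and 5.41, 10.8 and 5.99 in DKO. Its coefficient of variation over the 11 libraries, 45.8%, exceeded that of 97.0% of the 13910 genes with a mean of at least 1 CPM, whose median was 9.23%. The other 8 genes ranged from 7.33% for Hapln4 to 17.5% for Tnr. The log2 fold change was 0.37 in NFKO (SE 0.45, interval -0.65 to 1.38), -0.60 in AnkGKO (SE 0.51, -1.76 to 0.56) and -0.20 in DKO (SE 0.45, -1.22 to 0.82). Each of these intervals reached beyond 1 on the log2 scale on its wider side, so a 2-fold difference of Tnc was within them. Without Control 1 the value in DKO was 0.16.

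The genes whose log2 CPM followed Tnc most closely over the 11 libraries were Ryr1 (Pearson r = 0.96), Cmya5 (0.93) and Srl (0.92), all known as genes of striated muscle. A list of 8 skeletal muscle genes, Ryr1 among them, was drawn up after this had been seen. Its summed level was 428 CPM in NFKO 2, 204 in DKO 2 and 86.7 in NFKO 1, between 36.2 and 64.3 in the control libraries, and between 2.91 and 4.30 in the other 5 libraries. All 5 of those libraries were below 6 CPM for Tnc, and the 3 richest in muscle genes were above 10 CPM. Control 1, at 41.4 CPM of muscle genes, broke the pattern with 12.3 CPM of Tnc, and Control 3, at 36.2, had 5.71 CPM of Tnc. Control 1 and NFKO 1, the richest in granule cell markers (918 and 785 CPM), were both above 10 CPM for Tnc. So were NFKO 2 and DKO 2, at 305 and 224 CPM of these markers. Without NFKO 2 the log2 fold change of Tnc in NFKO was -0.10, and without the 3 libraries richest in muscle genes, which leaves NFKO 3 as the single NFKO library, it was -0.64. That value takes its spread from the other groups. The parts of muscle transcripts and of granule cell markers in the Tnc values were not tested.

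**Figure D3:**
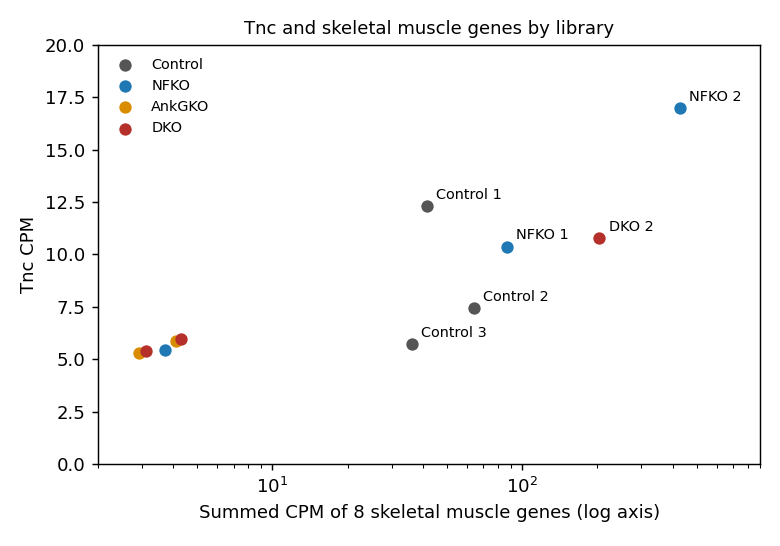
Tnc level in CPM (y axis, linear from 0) against the summed CPM of 8 skeletal muscle genes (x axis, logarithmic), 1 point per library, coloured by genotype and labelled where the sum exceeds 10 CPM. The 5 libraries at 2.91 to 4.30 CPM of muscle genes lie at 5.30 to 5.99 CPM of Tnc, and NFKO 2 is highest on both axes.

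Of the link proteins among the 9 genes, Hapln1 was lowest in level. It had the smallest p of the 9 in both comparisons of a single knockout with control. It was at 29.9, 28.8 and 32.9 CPM in control, 26.3, 27.5 and 28.0 in NFKO, 25.3 and 26.5 in AnkGKO, and 31.3, 22.3 and 29.3 in DKO. All NFKO and AnkGKO libraries lay below all control libraries, and the DKO libraries overlapped them. For Hapln1 the log2 fold change was -0.17 in NFKO (SE 0.11, interval -0.40 to 0.07, unadjusted p = 0.154, edgeR adjusted p = 0.857), -0.24 in AnkGKO (SE 0.12, -0.51 to 0.03, unadjusted p = 0.0754, adjusted p = 0.948) and -0.14 in DKO (SE 0.11, -0.38 to 0.09). Hapln1 was the only one of the 9 genes without overlap in NFKO, where 13.9% of all genes did not overlap with control, and in AnkGKO, where 24.0% did not. In DKO against control 0 of 9 were without overlap, against 14.4% of all genes. Since 1 of 9 is close to these backgrounds, the separation of Hapln1 is given as a description. NFKO and AnkGKO were compared with the same control libraries.

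Hapln2, the link protein that oligodendrocytes make for the nodes of Ranvier, was at 184, 179 and 194 CPM in control, 181, 177 and 226 in NFKO, 190 and 205 in AnkGKO, and 204, 202 and 174 in DKO. All groups overlapped, and NFKO 3 was the highest library. Log2 fold changes of Hapln2 were 0.07 in NFKO (SE 0.10, interval -0.14 to 0.28), 0.09 in AnkGKO (SE 0.11, -0.15 to 0.32) and 0.06 in DKO (SE 0.10, -0.15 to 0.27), and without NFKO 3 the first of these was -0.05. The summed level of 8 oligodendrocyte markers showed no group apart either, at 29633 to 31903 CPM in control, 26679 to 32936 in NFKO, 29098 to 32807 in AnkGKO and 28549 to 29952 in DKO.

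Hapln4, the link protein that neurons of brainstem and cerebellar circuits contribute to perineuronal nets, was at 383, 331 and 383 CPM in control, 376, 333 and 383 in NFKO, 337 and 415 in AnkGKO, and 348, 350.0 and 357 in DKO. The 3 DKO libraries differed by a coefficient of variation of only 1.33% and lay inside the range of control. Log2 fold changes of Hapln4 were -0.01 in NFKO (SE 0.09, interval -0.20 to 0.19), 0.04 in AnkGKO (SE 0.10, -0.18 to 0.26) and -0.06 in DKO (SE 0.09, -0.25 to 0.14). With intervals this narrow, a change of Hapln4 as large as the threshold of 0.6 lay outside the 95% confidence interval in all 3 comparisons with control.

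The same held for most of the 9 genes. The whole 95% confidence interval lay within ±0.6 for 8 of 9 in NFKO (all but Tnc), for 7 of 9 in AnkGKO and for 7 of 9 in DKO (all but Tnc and Tnr in each), against 65.4%, 63.0% and 64.6% of all genes tested. For Tnr the intervals reached 0.66 in AnkGKO and -0.61 in DKO. The interaction was measured less finely, with 4 of 9 intervals inside ±0.6, against 49.9% of all genes.

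By sign, 4 of the 9 genes were above and 5 below control in NFKO, with a median log2 fold change of -0.01 where that of all genes was -0.0050. In AnkGKO 6 were above and 3 below, with a median of 0.03 against -0.0050. In DKO only Hapln2 was above and 8 were below, with a median of -0.14 against -0.00062 for all genes, of which 49.8% were above. The DKO values ranged from -0.20 to 0.06 and none passed the test. Beside this, the 8 markers of inhibitory neurons of the kind that nets surround were all below control in DKO, with a median log2 fold change of -0.19, 0 of 8 called by edgeR or DESeq2 and 3 of 8 at an unadjusted p under 0.05 by edgeR, where 7.77% of all genes were. Their summed level was 2167 to 2487 CPM in DKO and 2416 to 2821 in control, and 2242 to 2440 in AnkGKO, where the same 8 were also all below control, with 0 of 8 at that p and 0 called. In NFKO 7 of the 8 were below control (median -0.10), with 0 of 8 at that p and 0 called, and the sum was 2311 to 2525 CPM. The part of this cell type in the matrix values was not tested.

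**Figure D4:**
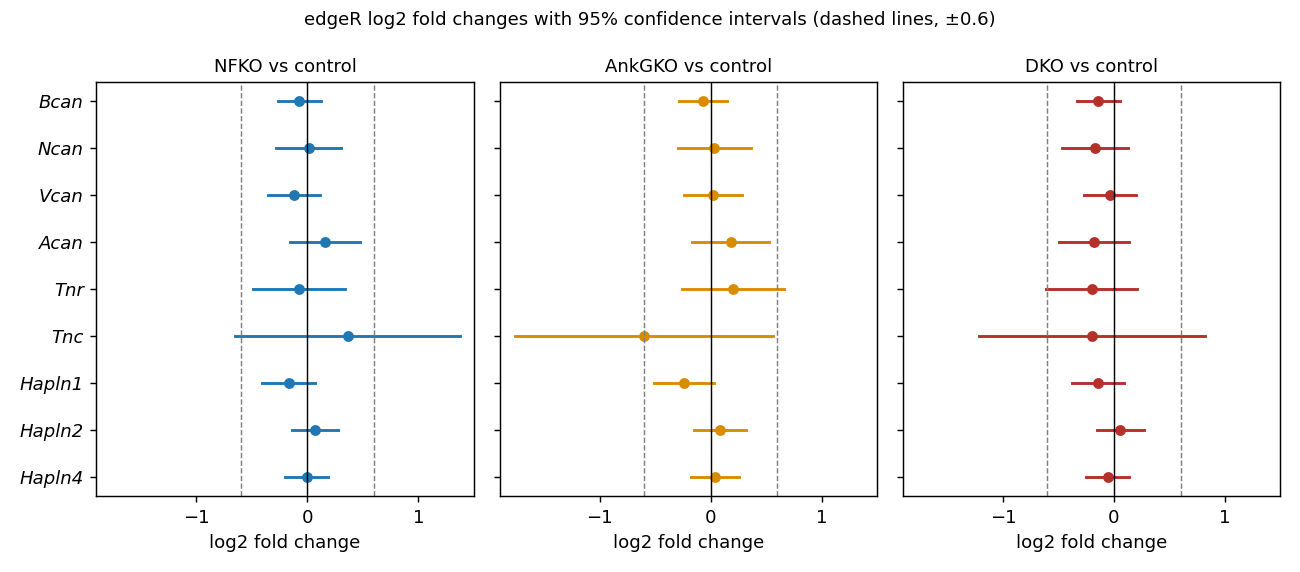
edgeR log2 fold changes (x axis) of the 9 matrix genes (y axis) in NFKO, AnkGKO and DKO against control; points are estimates, bars are 95% confidence intervals, and dashed lines mark ±0.6. All intervals include 0, and the intervals of Tnc, from -1.76 to 1.38 over the 3 panels, are by far the widest.

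Some of the spread belonged to single libraries. AnkGKO 2 was above AnkGKO 1 in 8 of the 9 genes, all but Tnc, where 49.0% of all genes tested were. AnkGKO 2 was the highest of the 11 libraries for 4 of the 9, Ncan, Acan, Tnr and Hapln4, a place it held for 9.57% of all genes. With 2 libraries in that group, the AnkGKO means of these genes rest on this pair. The summed level of the 9 genes was 1172 CPM in AnkGKO 1 and 1394 in AnkGKO 2, the lowest and the highest of all libraries.

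Among themselves the 9 genes shared no single pattern over the 11 libraries. The closest pairs were Acan and Hapln4 (Pearson r = 0.79 of log2 CPM over 11 libraries) and Acan and Ncan (0.73), and the most opposed were Vcan and Tnc (-0.57). AnkGKO 2 was highest for all of the first 3. Tnr was most like Prrc2c (0.97), Apc (0.96) and Tnpo1 (0.95), and Acan most like Pank1 (0.95), Dip2a (0.95) and Acsbg1 (0.95). For Hapln2 the nearest genes were Nde1 (0.95), Rab31 (0.91) and Sgk3 (0.91), and for Hapln1 they were Zfp612 (0.93), Ptprj (0.92) and Fbxo33 (0.91). Hapln4 was nearest to Cbx6 (0.93), P2rx5 (0.90) and Phospho1 (0.90), Bcan to U2af1 (0.91), Chek2 (0.91) and Tmem204 (0.90), Ncan to Trpm2 (0.91), Cdh10 (0.90) and Tomm40l (0.88), and Vcan to Mtm1 (0.90), Myrip (0.89) and Slc25a44 (0.89). These values are the highest among 13909 genes each and describe the libraries, which share their depth and scaling. None of these nearest genes belongs to the 9 or to the pathway lists.

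Lectican and link protein genes lie side by side in the genome, which the rule did not use. On GRCm39, with positions from GENCODE, Bcan (chromosome 3, 87894835 to 87910177, minus strand) and Hapln2 (87926800 to 87934890, minus strand) are 16.6 kb apart. Vcan (chromosome 13, 89803431 to 89890814, minus strand) and Hapln1 (89686581 to 89759950, plus strand) are 43.5 kb apart. Acan (chromosome 7, 78702964 to 78764847, plus strand) ends 2 bases from the end of Hapln3 (78764850 to 78780956, minus strand), the remaining link protein gene. No coding gene lies between the members of these pairs. Tnr (chromosome 1, 159351339 to 159759299, plus strand) and Tnc (chromosome 4, 63878014 to 63965443, minus strand) have no such partner.

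Ncan (chromosome 8, 70538926 to 70573523, minus strand) and Hapln4 (70536106 to 70543533, plus strand) overlap tail to tail over 4608 bases. Their exons share 1255 bases on opposite strands, 12.6% of the exon bases of Ncan and 31.3% of those of Hapln4. The library kit kept the strand, but the strand setting of the counting is not given in the sources used here, so reads in the shared stretch cannot be assigned with certainty. As a ratio of CPM, Ncan to Hapln4 averaged 0.251 ± 0.0190 over the 3 control libraries (mean ± SD), 0.255 ± 0.0188 over 3 NFKO, 0.249 ± 0.00354 over 2 AnkGKO and 0.231 ± 0.0467 over 3 DKO libraries. This ratio overlapped between all groups, as did that of Bcan to Hapln2. The ratio of Vcan to Hapln1 was 2.04 and 2.18 in AnkGKO, above 1.65 to 1.90 in control and 1.64 to 1.90 in NFKO, with DKO at 1.54 to 2.25. No test was run on these ratios. Over the 11 libraries, Pearson r of log2 CPM between neighbours was 0.50 for Ncan and Hapln4, 0.21 for Bcan and Hapln2 and 0.29 for Vcan and Hapln1.

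Hapln3, which belongs to vessels and cartilage more than to neurons, was expressed at a low level, with 28 to 68 reads per library. It was at 0.806, 1.23 and 1.17 CPM in control, 1.11, 0.732 and 0.669 in NFKO, 0.681 and 0.608 in AnkGKO, and 1.31, 1.17 and 1.24 in DKO. Both AnkGKO libraries lay below all control libraries. The log2 fold change was -0.35 in NFKO (SE 0.26, edgeR adjusted p = 0.887), -0.73 in AnkGKO (SE 0.30, adjusted p = 0.842) and 0.21 in DKO (SE 0.26, adjusted p = 0.854). In DKO against AnkGKO it was 0.94 (SE 0.30, edgeR adjusted p = 0.471), so this gene did not pass the test in any comparison.

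The wider matrix pathway was read from 84 genes in 5 lists, of hyaluronan synthesis and turnover, chondroitin sulfate synthesis, other proteoglycans, matrix proteases and their inhibitors, and receptors of the matrix. All 84 were tested, and edgeR called 0 in each of the 6 comparisons. DESeq2 called 1 of 84 in NFKO against control (Gldn, higher), 2 in DKO against NFKO (Cd44, higher, and Hspg2, lower), 2 in the interaction (Tnfaip6, above 0, and Adamts9, below it) and 0 in the other 3 comparisons. Its share over all genes was 0.906%, 2.38% and 1.79% in the first 3 of these, so 1 or 2 of 84 is near the background. At an unadjusted p under 0.05 there were 11 of 84 in NFKO against control, 4 in AnkGKO and 9 in DKO, where 7.69%, 5.39% and 7.77% of all genes were. In DKO against NFKO there were 25 of 84, a larger share than the 16.2% of all genes. The median log2 fold change of the 84 was -0.11, against 0.00031 for all genes, and the reason for the larger share was not tested. That comparison held the most such genes among all genes as well.

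Gldn encodes gliomedin, a protein that Schwann cells place at peripheral nodes, where it binds neurofascin. It was at 5.66, 6.59 and 6.04 CPM in NFKO, above the control libraries at 2.76, 2.84 and 3.74, with a log2 fold change of 0.97 (SE 0.21, edgeR adjusted p = 0.0959, DESeq2 adjusted p = 0.00113). The summed Schwann cell markers were also higher in NFKO than in every control library, as given below, and their part in the Gldn values was not tested.

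By the rule for naming genes, 3 genes of these lists are described. Adamts20 encodes a secreted metalloprotease of the family that cleaves lecticans. It was at 21.4, 20.7 and 19.4 CPM in control, 15.4, 16.5 and 16.1 in NFKO, 20.01 and 20.6 in AnkGKO, and 19.4, 18.9 and 19.1 in DKO. NFKO lay below every other library, with a log2 fold change against control of -0.36 (SE 0.07, interval -0.52 to -0.20, edgeR adjusted p = 0.0610), which passed neither threshold. Adamts9 encodes a related protease that cleaves versican and aggrecan. In AnkGKO it was at 9.80 and 9.36 CPM, above the control libraries at 8.19, 6.42 and 6.74 (log2 fold change 0.43, SE 0.17, edgeR adjusted p = 0.783). Chpf2 encodes a factor for the polymerization of chondroitin sulfate. It was at 97.4, 74.9 and 88.8 CPM in DKO, above the control libraries at 66.7, 63.8 and 66.5 (log2 fold change 0.41, SE 0.11, interval 0.17 to 0.64, edgeR adjusted p = 0.528).

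Of the 5 lists, only other proteoglycans in NFKO had a median beyond 0.6, at 0.66 over 16 genes, with 9 above and 7 below control and 0 called. The members with the highest values were Prg4 (1.29), Fmod (1.24), Lum (1.19) and Dcn (1.05), proteoglycans of connective tissue, and their adjusted p values by edgeR were 0.967, 0.683, 0.837 and 0.815. In contrast, the neural proteoglycans of the same list stayed near control, with log2 fold changes in NFKO of -0.03 for Cspg4, -0.07 for Cspg5 and -0.04 for Ptprz1. Markers of other cell types moved with the connective tissue members. In NFKO 8 of 8 markers of meningeal fibroblasts and 6 of 6 of Schwann cells were above control, with 0 called in either list by edgeR or DESeq2, and with 2 of 8 and 2 of 6 at an unadjusted p under 0.05 by edgeR, where 7.69% of all genes were. Fibroblast markers summed to 487 to 1471 CPM in NFKO and 157 to 425 in control, and Schwann cell markers to 346 to 368 in NFKO and 77.8 to 205 in control. Their part in the proteoglycan values was not tested. In AnkGKO and DKO the medians of the 5 lists lay between -0.08 and 0.13.

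**Figure D5:**
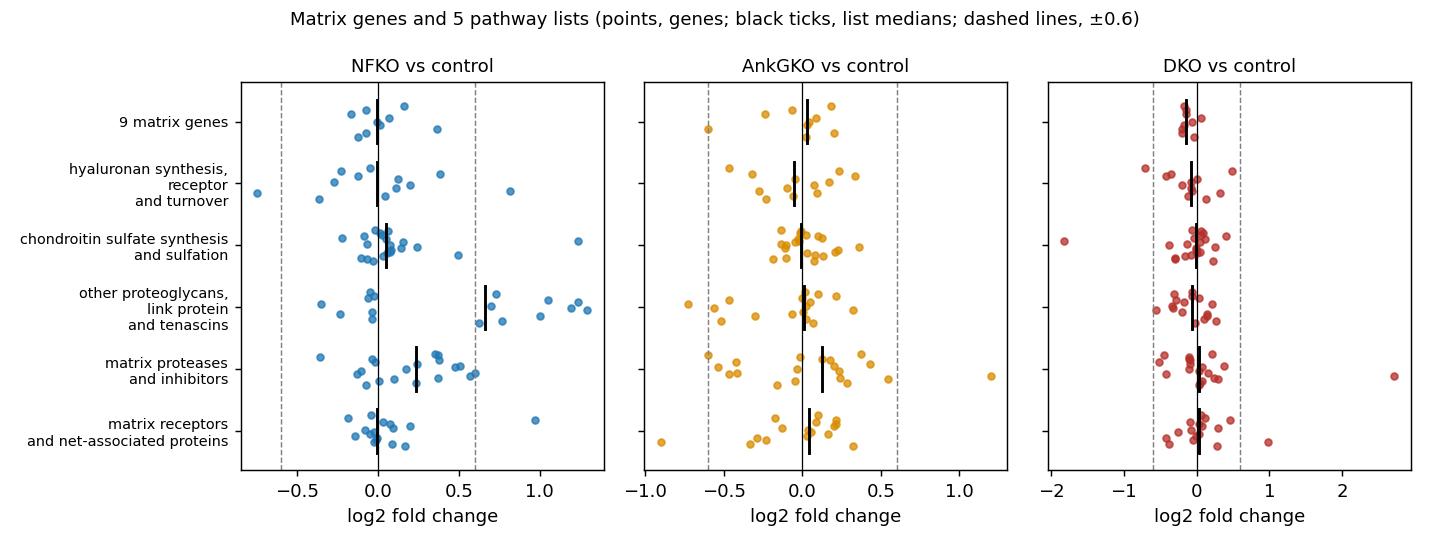
edgeR log2 fold changes (x axis, scaled separately in each panel) of the 9 matrix genes and of the 84 genes in 5 pathway lists (y axis) in NFKO, AnkGKO and DKO against control; points are genes, black ticks are list medians, and dashed lines mark ±0.6. The 9 matrix genes lie between -0.60 and 0.37 over the 3 panels, and the median of other proteoglycans in NFKO stands at 0.66.

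Markers of other cells, some of which make these genes, differed between groups for some lists and overlapped for others. The 8 markers of oligodendrocyte precursors summed to 606 to 686 CPM in control, 602 to 621 in NFKO, 615 and 657 in AnkGKO, and 516 to 652 in DKO. The 8 astrocyte markers summed to 6466 to 6646 CPM in control, 6029 to 7127 in NFKO, 8510 and 8938 in AnkGKO, and 7220, 7674 and 7343 in DKO. All AnkGKO and DKO libraries thus lay above all control libraries for this sum, while Bcan and Ncan, which astrocytes express, overlapped control in both groups and had log2 fold changes of -0.14 and -0.17 in DKO. Gfap and Slc1a2 were the largest members of the sum, with means of 2423 and 2721 CPM in DKO against 1887 and 2490 in control. Aqp4 was at 666 in DKO against 668, and Slc1a3 at 170 against 224. In AnkGKO 7 of the 8 astrocyte markers were above control and 5 of 8 were at an unadjusted p under 0.05 by edgeR, where 5.39% of all genes were, and in DKO 6 were above and 2 of 8 were at that p, against 7.77%. Neither edgeR nor DESeq2 called any of the 8 in these comparisons, and the part of astrocyte transcripts in the matrix values was not tested.

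Microglial markers summed to 370.0 to 447 CPM in control, 432 to 460 in NFKO, 494 and 525 in AnkGKO, and 406 to 527 in DKO. In AnkGKO 7 of 8 and in DKO 8 of 8 were above control, with 0 called by either tool. In each, 4 of 8 were at an unadjusted p under 0.05 by edgeR, where 5.39% (AnkGKO) and 7.77% (DKO) of all genes were. The 8 motor neuron markers were all above control in AnkGKO and in DKO. In DKO against control edgeR called 1 of them, Uts2 (log2 fold change 2.60, edgeR adjusted p = 0.00818), where 0.0228% of all genes were called. DESeq2 called 2, Calca and Uts2, where it called 0.251% of all genes. In NFKO edgeR called 0, where 0.365% of all genes were called, and DESeq2 called Uts2, where it called 0.906%. Of 8 Purkinje cell markers 7 are in the table, and all 7 were below control in AnkGKO and in DKO, with 0 called and 0 at an unadjusted p under 0.05 by edgeR in any comparison with control. Their sums were 290.1 to 402 CPM in 9 libraries, 1105 in Control 1 and 1226 in NFKO 1. The spread of these sums was not tested against the matrix genes.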

How the data were processed

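Polyadenylated RNA of 11 mice was sequenced, and libraries were grouped by their labelled genotype. Per the labels and the study's methods, the authors trimmed reads with Trimmomatic 0.39, aligned them to GRCm39 with STAR 2.7.11a and deposited raw counts per gene, without normalization, for 22609 gene symbols. Labels give single-end reads of 100 bp, the methods paired-end reads, and the methods name STAR for the counting while the 5 summary lines of the table have the form of another counter. The deposited normalized signal is those counts divided by size factors of 0.815 to 1.16, which DESeq2 gave from the counts as well, and was not used for tests. The summary lines were left out. They held reads without a gene (9.23% to 10.4% of all reads), ambiguous reads (0.168% to 0.185%) and multiply aligned reads (32.5% to 34.3%). At these depths 3 reads equal 0.0546 to 0.0780 CPM, which covers counting error only.

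For the tests, genes needed a total of 10 counts or more, which 17557 had. They were fitted with edgeR 4.0.16 (R 4.3.3) by the robust quasi-likelihood method after TMM normalization, in 1 model of the 4 genotypes, and p-values were adjusted after Benjamini and Hochberg. Intervals are 95% and rest on the same fit. Alternatives were DESeq2 1.42.0 (local dispersion fit), size factors of DESeq2 inside edgeR, filterByExpr or no filter, fits on the compared groups alone, a replicate block, fold-change thresholds of 0 and 1, and leaving out each library in turn. After seeing the data, fits without Control 1 and NFKO 1, without the 3 libraries richest in muscle genes, and with a block over control and NFKO alone were added. Deviations from group means correlated for each same-numbered pair of control and NFKO (r = 0.57, 0.47 and 0.26). The numbers of the labels were therefore taken to pair these samples in the block over control and NFKO alone. The main fit had no such term, so its errors, intervals and p-values leave this pairing out. Over all groups the 15 pairs ranged from -0.47 to 0.57, and the labels do not say what the numbers stand for.

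The matrix genes and lists were chosen with earlier results of these data known. Named are all 9 matrix genes, the genes of the pathway lists called in any comparison, the gene of those lists with the smallest p in each comparison with control, Hapln3, the 3 genes most like each matrix gene among those with a mean of at least 1 CPM, and genes a result turns on. Gldn, Cd44, Hspg2, Tnfaip6, Prg4, Fmod, Lum, Dcn, Cspg4, Cspg5, Ptprz1, Pcp2, Gabra6, Calb1, Reln, Calca and Uts2 were named after their values were seen. So were Fat2, Cbln3, Neurod1, Car8, Hoxb8, Hoxc8, Gfap, Slc1a2, Aqp4 and Slc1a3. The labels call the samples of a group biological replicates.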

Additional observations from a re-analysis of the deposited data

Results flagged for a closer look

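Acan was the only one of the 9 matrix genes for which every library of one knockout lay above the control mean and every library of another lay below it. The log2 ratio of the NFKO mean to the control mean was 0.1594 and that of the DKO mean was -0.1792. Both groups overlapped the range of the control libraries. The share of all genes that meet this rule was not counted, so the pattern is given as a description. The difference itself was tested as DKO against NFKO and did not pass (log2 fold change -0.34, unadjusted p = 0.0367, edgeR adjusted p = 0.275). It was -0.27 without NFKO 1 and -0.27 without DKO 1.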

How the results depend on the processing

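The count of matrix genes called was 0 in each of the 6 comparisons and stayed 0 under every alternative run, 22 for NFKO against control, 21 for each other pair of groups and 20 for the interaction. The replicate block changed none of these counts. With the block over control and NFKO alone, 2 of 9 had an unadjusted p under 0.05, where 12.8% of all genes had, Acan (log2 fold change 0.16, edgeR adjusted p = 0.293) and Hapln1 (-0.16, adjusted p = 0.387). The smallest adjusted p over all alternatives was 0.293 in NFKO, 0.487 in AnkGKO (Hapln1), 0.335 in DKO (Bcan), 0.115 in DKO against NFKO, 0.230 in DKO against AnkGKO and 0.0933 in the interaction, the last 3 all for Acan. The number of all genes called moved far more. It was 64 in NFKO against control and ranged from 29 to 248, and the ranges were 18 to 102 (29 in the fit described) in AnkGKO, 3 to 44 (4) in DKO, 32 to 418 (108) in DKO against NFKO, 11 to 99 (30) in DKO against AnkGKO and 41 to 314 (93) in the interaction.

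Of the 27 fold changes of single genes against control, 15 kept their sign in all alternatives and 12 did not in at least 1. None of the 27 was called in any setting. Leaving out single libraries gave these ranges of log2 fold change for the 12. In NFKO they were -0.03001 to 0.06906 for Ncan, -0.2747 to 0.0911 for Tnr, -0.1006 to 0.7297 for Tnc, -0.05024 to 0.1313 for Hapln2 and -0.0735 to 0.0539 for Hapln4. In AnkGKO they were -0.197 to 0.05148 for Bcan, -0.1095 to 0.1606 for Ncan, -0.05749 to 0.1042 for Vcan, -0.1611 to 0.4581 for Acan and -0.1162 to 0.1828 for Hapln4, and in DKO -0.1736 to 0.06608 for Vcan and -0.5718 to 0.1643 for Tnc. Without Control 1 and NFKO 1, Hapln4 in NFKO was 0.005233 and Tnc in DKO 0.1645. Without the 3 libraries richest in muscle genes, which leaves only NFKO 3 in its group, Tnc in NFKO was -0.641 and Hapln4 in NFKO 0.06469. The cause of the reversals was not tested. Depth did not limit the 9 genes, which had at least 232 reads in every library, but 2 AnkGKO libraries limit all comparisons with that genotype.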
